A study of Mus musculus with 9 samples.

Results

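The maturation of cultures exposed to 100 nM retinoic acid (RA) was followed from embryoid bodies (EBs) on day 8 to neurospheres on day 29, by comparing the array of R7 neurospheres with the array of R7 EBs. These are 2 of the 9 arrays of the series, chosen by their sample titles. All samples came from a mouse embryonic stem cell (mESC) line that the labels call G6B-2, and no genetic change is stated for any of them. The series holds mESCs, EBs on day 2, EBs on day 8 without RA (C) or with 1, 10 or 100 nM RA (R9, R8 and R7), and neurospheres on day 29 for C, R8 and R7. RA, or 0.1% ethanol for C, was present for 4 days, between day 2 and day 6, so R7 neurospheres had been without added RA since day 6. Per the study's methods, EBs were moved to coated plates on day 8 and later given neural medium. Time, plate coating and medium thus differ together between the 2 stages and cannot be told apart. RNA of several biological replicates was mixed before hybridization, and each condition has 1 array. The arrays thus carry no replicate error, and no p-value is given.

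mESCs keep themselves undifferentiated through a small circuit of transcription factors that includes Nanog and Pou5f1, and they divide rapidly. In EBs, RA binds nuclear receptors, switches on Hox genes and directs part of the cells to a neural fate. Neural progenitors make neurons before glia, and astrocytes are recognised by the filament protein Gfap and by enzymes and transporters of glial metabolism. Each array measured a mixture of cells, so fewer cells of a type and less RNA per cell cannot be told apart in any value given here.

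A value here is a scaled signal, in arbitrary units, or the log2 difference of 2 scaled signals, neurosphere minus day 8. A signal under the detection level, which is 27.4 on the R7 day 8 array and 23.7 on the R7 neurosphere array after scaling, was taken as not detected. A gene detected at 1 stage alone gives a limit on its change, marked by the words "at least" or "or lower" and called a bound. The background of the R7 neurosphere array was itself higher, with a 0.99 quantile of 62.2 after scaling. Against that level, every limit for a gene not detected in R7 neurospheres is weaker by 1.40 on the log2 scale, and a decrease that ends under 62.2 is given as a limit. A gene is represented by its brightest probe. As a measure of error, the day 8 arrays of R9 and C, the most alike pair in treatment, were compared. Their log2 differences had a robust SD of 0.50 in the dimmest decile of probes, 0.58 in the next, the largest, and 0.15 in the brightest. This spread includes any effect of 1 nM RA.

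The 4 marker genes of these cultures changed by far more than that spread. Gfap, the intermediate filament protein of astrocytes, was not detected in R7 EBs (4.7) and reached 25379.6 in R7 neurospheres, a log2 difference of at least 9.86. Its other probe gave 11.9, not detected, and 3581, a difference of at least 7.03. Gfap was at 17.1 in mESCs and 5.2 in day 2 EBs, at 28.6 in C, 10.0 in R9 and 10.2 in R8 EBs on day 8, and at 167.9 in C and 1941.3 in R8 neurospheres. The R7 neurosphere array was thus the highest of the 9, with R8 neurospheres next and all arrays up to day 8 under their detection levels.

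Aldoc, the brain form of the glycolytic enzyme aldolase, was at 1592.1 in R7 EBs and 7115.2 in R7 neurospheres, a log2 difference of 2.16. It was at 624.0 in mESCs, 3036.2 in day 2 EBs, 1578.6 in C, 1783.7 in R9 and 1701.2 in R8 EBs on day 8, and 449.5 in C and 2592.2 in R8 neurospheres. The 4 day 8 arrays lay close together, and the 3 neurosphere arrays ran from below to above them. Aldh1l1, an enzyme of folate metabolism used as an astrocyte marker, was at 85.2 in R7 EBs and 1045.7 in R7 neurospheres, a log2 difference of 3.62. It stood between 57.8 and 126.3 on the other arrays up to day 8, at 60.9 in C neurospheres and at 266.7 in R8 neurospheres. Of its other probes, 1 gave a difference of 4.58 and 1 gave -0.27, so the probes of Aldh1l1 disagreed.

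Nanog, the transcription factor that holds mESCs undifferentiated, was at 8083.4 in R7 EBs and 130.7 in R7 neurospheres, a log2 difference of -5.95. It was at 7956.3 in mESCs, 9878.5 in day 2 EBs, 16338.1 in C, 16801.1 in R9 and 12192.7 in R8 EBs on day 8, and at 209.1 in C and 149.8 in R8 neurospheres. The 3 neurosphere arrays were all far below the other 6 arrays. Its other probes, not detected in R7 neurospheres, gave -5.93 or lower and -6.39 or lower.

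**Figure D1:**
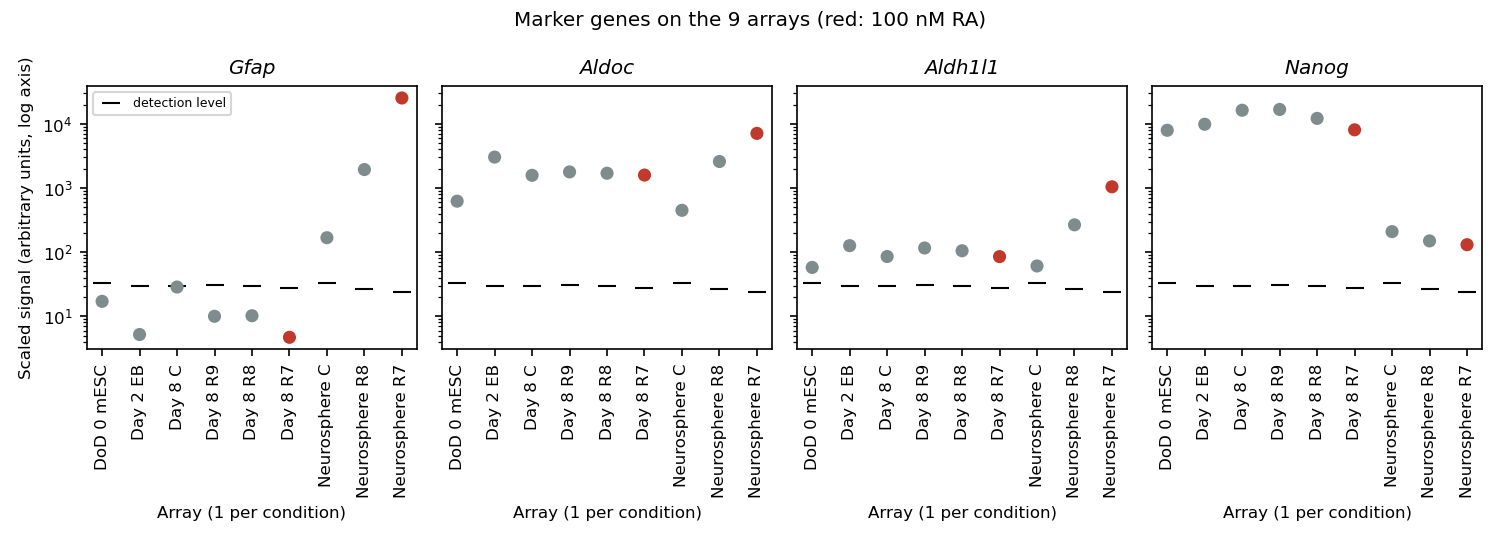
Scaled signal (arbitrary units, log axis) of Gfap, Aldoc, Aldh1l1 and Nanog on each of the 9 arrays, with the 100 nM arrays in red and the detection level of each array as a short line. Gfap, Aldoc and Aldh1l1 are highest on the R7 neurosphere array (25379.6, 7115.2 and 1045.7) and Nanog is lowest there (130.7).

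The stretches upstream of Nanog and Aldoc are shown because these genes moved in opposite directions and because the letters of a known motif occur in each. Sequences are from RefSeq (GRCm38.p6), written 5′ to 3′ along the gene, and end at the base before the annotated start site. Capitals mark, in Nanog, the composite octamer and Sox motif, and in Aldoc, the STAT palindrome TTCNNNGAA.
Nanog upstream region, chr6:122707239-122707488, plus strand: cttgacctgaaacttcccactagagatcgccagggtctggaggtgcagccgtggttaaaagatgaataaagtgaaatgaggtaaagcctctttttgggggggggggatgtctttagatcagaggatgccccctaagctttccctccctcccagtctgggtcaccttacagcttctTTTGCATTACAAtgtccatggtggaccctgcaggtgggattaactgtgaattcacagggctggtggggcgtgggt
Aldoc upstream region, chr11:78323948-78324197, plus strand: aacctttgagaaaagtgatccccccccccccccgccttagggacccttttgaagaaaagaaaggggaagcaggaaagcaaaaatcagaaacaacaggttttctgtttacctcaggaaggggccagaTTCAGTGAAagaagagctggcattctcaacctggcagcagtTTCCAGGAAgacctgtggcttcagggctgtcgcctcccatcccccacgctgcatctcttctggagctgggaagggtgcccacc
Positions are counted back from the start site. The Nanog match began at -75, and the Aldoc matches at -124 and -83. On both strands of the windows from 250 bases before to 50 bases after the start site, the composite motif was in 1 of 20 pluripotency genes with a window and in 0.037% of all genes, and the STAT palindrome in 4 of 27 astrocyte genes and 9.55% of all genes. The palindrome of NFI factors was in 0 of 27 astrocyte genes and 0.0444% of all genes. A match is a description of the letters and no evidence of binding, and the motifs and the genes shown were chosen after the values were seen.

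Over the whole array, probes detected in R7 neurospheres alone, with a signal not above the day 8 detection level of 27.4, gave no difference. A difference or a bound was measured for 24944 of 46643 probes. Of these, 4039 were at least 2-fold higher in neurospheres (16.2%) and 4000 at least 2-fold lower (16.0%). Among the 20151 probes detected on both arrays, 29.8% were past 2-fold, against 2.68% between the R9 and C arrays of day 8. The near-even split depends on how the arrays are scaled: without scaling, 62.9% of the probes past 2-fold were higher in neurospheres, against 50.2% with it. By gene, 13230 could be measured, and 2366 of them (17.9%) were higher by 2-fold or more and 1944 (14.7%) lower, with a median difference of -0.02. Together 32.6% of genes were past 2-fold in R7 cultures, against 33.3% in R8 and 39.8% in C cultures over the same interval. Where the brightest probe of a gene passed 2-fold, 81.9% of the 1905 other measured probes of these genes had the same direction, and 63 were past 2-fold in the opposite one.

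**Figure D2:**
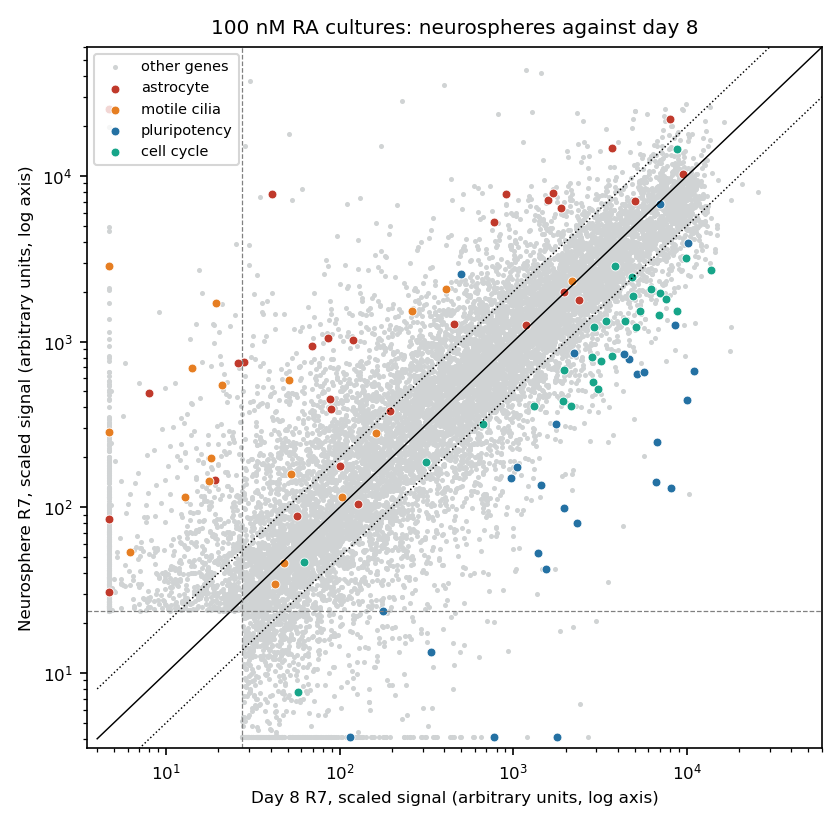
Scaled signal of each gene in R7 EBs on day 8 (horizontal, log axis) and in R7 neurospheres (vertical, log axis), with dotted lines at 2-fold and dashed lines at the detection levels of 27.4 and 23.7. Pluripotency and cell cycle genes lie mostly below the diagonal, and astrocyte and motile cilia genes mostly above it.

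Astrocyte genes were higher as a group. Of 34 genes in the list, 32 had a probe and 30 were measured, of which 20 were at least 2-fold higher (against 17.9% of all genes) and 0 at least 2-fold lower, with a median log2 difference of 2.07 against -0.02 over all genes. Restricted to the 24 detected on both arrays, 15 were higher and the median was 1.88. Mt3, a brain metallothionein that binds zinc, was at 40.7 in R7 EBs and 7743.5 in R7 neurospheres, a difference of 7.57. Slc1a3, a glutamate transporter, was at 773.0 and 5287.6, a difference of 2.77. Slc1a2, the other main glial glutamate transporter, was at 87.3 and 451.2, a difference of 2.37. Each of these was higher in neurospheres by several times the spread of the R9 and C arrays.

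Aqp4, the water channel of astrocyte endfeet, was at 68.7 and 938.0, a difference of 3.77. Sparcl1, a secreted glial protein that promotes synapse formation, was not detected in R7 EBs and was at 742.1 in neurospheres, at least 4.76 higher. Ntsr2, a neurotensin receptor, was at 28.2 and 748.4, a difference of 4.73. Not every marker moved in this way. Gja1, the gap junction protein connexin, was bright on both arrays at 5022.1 and 7071.4, a difference of 0.49. S100b, a calcium-binding protein of mature astrocytes, was not detected in R7 EBs and stood at only 30.8 in neurospheres, just over the detection level and within the background of that array, whose 0.99 quantile was 62.2. Gli3, a transcription factor of Hedgehog signalling, had a difference of -0.42.

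The median of the astrocyte list was 2.07 in R7 cultures, 1.59 in R8 cultures and 0.27 in C cultures for the same interval. Of 28 astrocyte genes measured in all 3 cultures, the difference was larger in R7 than in C in 23 and larger in R7 than in R8 in 20. Some of these values are bounds. Among the 20 genes detected on all 6 arrays, the R7 difference was above C in 16 and above R8 in 13. The 3 pairs share no array, and with 1 array a condition the differences between cultures were not tested. For single genes, Mt3 changed by 4.44 in R8 and 1.61 in C cultures, Aqp4 by 1.30 and 0.27, and Slc1a3 by 2.79 and -0.13. Slc1a3 therefore changed by nearly the same amount in R7 and R8 cultures, while Mt3 and Aqp4 had larger values in R7.

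Genes of motile cilia, the beating cilia that ependymal cells carry, were also higher. Of 24 genes, 20 had a probe and 18 were measured. Of these, 12 were at least 2-fold higher and 0 lower, against 17.9% and 14.7% of all genes, with a median of 2.37. For 9 of the 18 the value is a bound, because the gene was detected only in neurospheres. Over the 9 detected on both arrays, 4 were higher and the median was 0.79. Dynlrb2, a dynein light chain, was not detected in R7 EBs (4.7) and was at 2844.5 in neurospheres, at least 6.70 higher. Meig1, known from sperm development, went from 19.4, not detected, to 1702.5, at least 5.96 higher. Rsph4a, a protein of the radial spokes, went from 14.1, not detected, to 692.8, at least 4.66 higher. These values are well above the detection level of the neurosphere array.

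Foxj1, the transcription factor that directs motile cilia formation, was not detected in R7 EBs (18.1) and stood at 198.9 in neurospheres, at least 2.86 higher. Foxj1 was not detected on the C (29.2) or R8 neurosphere arrays. Rfx3, a partner factor, was at 52.3 and 159.2, a difference of 1.61. Rfx2 hardly differed between R7 arrays, at 2174.8 and 2319.9, whereas its difference was -2.06 in R8 and -3.23 in C cultures. The dynein intermediate chain Dnaic2 was close to the detection level on both R7 arrays, at 42.5 and 34.5. The median of the cilia list was 0.80 in R8 and -0.68 in C cultures. The X-box core bound by RFX factors was in 0 of 15 cilia genes with a promoter window and 0.529% of all genes.

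**Figure D3:**
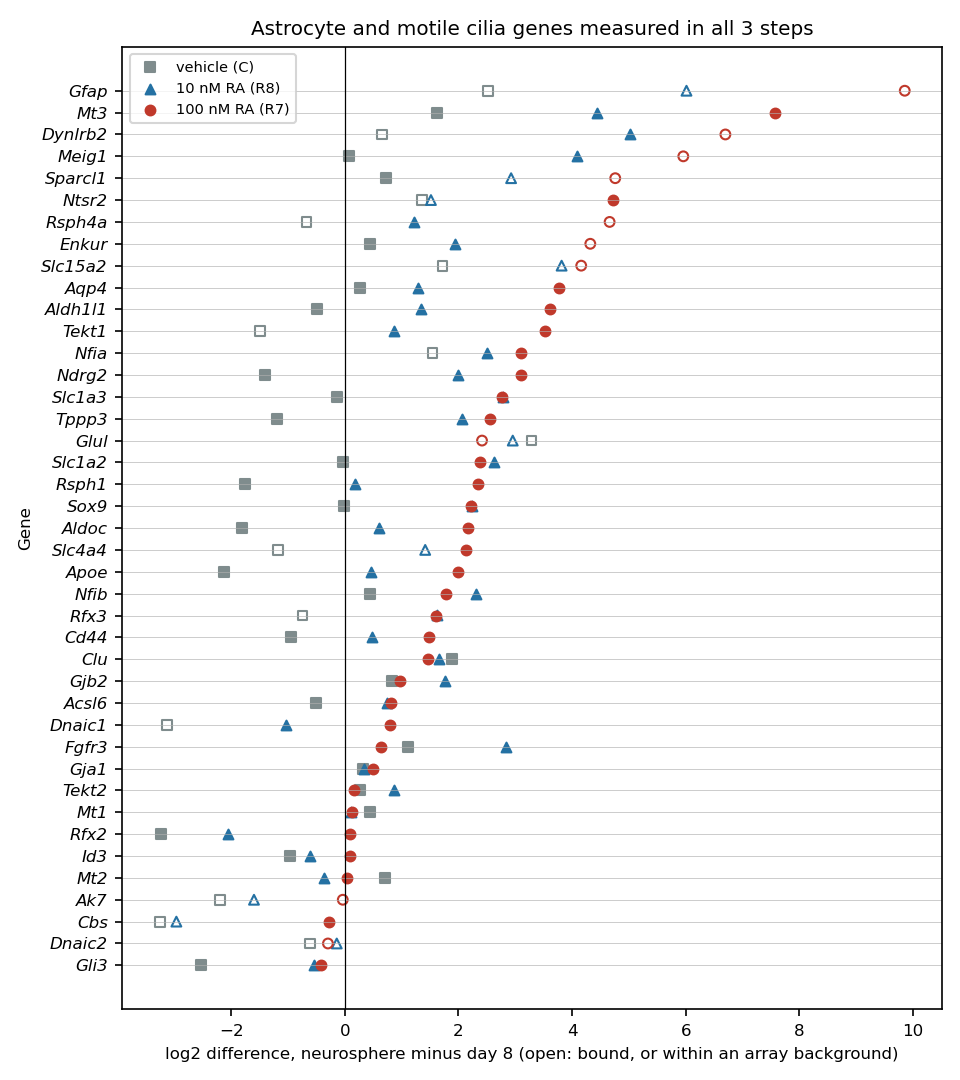
Log2 difference, neurosphere minus day 8, of astrocyte and motile cilia genes measured in R7 (circles), R8 (triangles) and C cultures (squares), with open symbols for bounds and for values with a signal within the background of its array. Gfap (at least 9.86), Mt3 (7.57) and Dynlrb2 (at least 6.70) have the largest R7 values, and most R7 values lie to the right of the C values.

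Most genes of the oligodendrocyte lineage were higher. Of 16 that were measured, 10 were higher by 2-fold or more and 1 lower, against 17.9% and 14.7% of all genes. The median was 1.36 in R7, 0.77 in R8 and -0.12 in C cultures. Olig1, a transcription factor of oligodendrocyte precursors, was at 814.2 and 23622.8, a difference of 4.86. Olig1 had also been bright in mESCs (12400.3). Olig2, its relative, which also marks motor neuron progenitors, was at 68.3 and 753.7, a difference of 3.46. Cldn11, the tight junction protein of myelin, was at 255.1 and 2986.7, a difference of 3.55. Sox10, which drives myelin genes, was at 33.5 and 84.6, low on both arrays. Mbp, myelin basic protein, had probes that disagreed. The probe that represents it was at 1242.7 and 563.4, a difference of -1.14. Another probe was at 114.6 and 3827.5, a difference of 5.06. The mean of its measured probes was 1.12. Mog, a late myelin protein, was near the detection level at 37.6 and 43.1.

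Neural progenitor genes were mixed. Of 21 measured, 6 were at least 2-fold higher and 5 lower, against 17.9% and 14.7% of all genes, with a median of 0.43. Bcan, a proteoglycan of glial progenitors, was not detected in R7 EBs (16.0) and was at 1963.1 in neurospheres, at least 6.16 higher. Its other probe was detected on both R7 arrays, at 63.3 and 411.7, a smaller difference of 2.70. Notch1, the receptor that keeps progenitors undifferentiated, was at 549.5 and 1877.6, a difference of 1.77. Prom1, the membrane protein prominin, was at 1739.0 and 5864.0, a difference of 1.75. Sox2, shared by mESCs and neural progenitors, was at 667.9 and 187.2, a difference of -1.84, or -1.11 as the mean of its probes. Hes5, a Notch target, was at 186.4 and at 55.9, within background, -1.58 or lower. Nes, the progenitor filament nestin, differed little, at 550.0 and 673.6. Pax6 was at 385.0 and 849.2, a difference of 1.14, and Sox1 was detected on neither array.

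Neuronal genes did not follow the glial ones in R7 cultures. The neuron list had 26 genes measured, of which 3 were at least 2-fold higher and 8 lower, against 17.9% and 14.7% of all genes. Over the 20 detected on both R7 arrays, 1 was higher and 4 lower, with a median of -0.23. The median of the measured genes was -0.36, against 1.30 in R8 and 0.93 in C cultures. Dcx (doublecortin, which binds microtubules in migrating young neurons) was at 723.4 in R7 EBs and 184.0 in R7 neurospheres, a difference of -1.97. Dcx was at 146.1 and 708.2 in R8 cultures and at 38.4 and 420.4 in C cultures, differences of 2.28 and 3.45. Dcx in R7 EBs was thus close to that in R8 neurospheres, and R7 neurospheres had the lowest level of the 3 neurosphere arrays. Nefm, a neurofilament subunit, was at 164.0 in R7 EBs and not detected in R7 neurospheres, a difference of -2.79 or lower. Isl1, a transcription factor of motor and sensory neurons, was at 156.6 in R7 EBs and not detected in R7 neurospheres, -2.73 or lower. Elavl2, a neuronal RNA-binding protein, was at 404.7 and 25.7, the second within background, a difference of -2.70 or lower, but its highest value was in day 2 EBs (1163.7). Tubb3, the neuronal tubulin, was low and similar at 132.9 and 125.7.

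A few neuronal genes were higher. Cntn1, a neuronal adhesion protein also present on oligodendrocyte precursors, was at 37.5 and 1080.8, a difference of 4.85. Map2, the dendritic microtubule protein, was not detected in R7 EBs (26.5) and was at 111.1 in R7 neurospheres, at least 2.02 higher. Most of its other probes gave no difference. The rest were bounds that ended within background, at 51 and 59.3, and the mean of the measured probes was 1.34. Scg2 was not detected in R7 EBs (16.2) and was at 188.3 in R7 neurospheres, at least 2.78 higher. The other Scg2 probe went the other way, from 29.9, just over the detection level, to not detected. Rbfox3, the nuclear antigen of mature neurons, differed little, at 165.6 and 201.1. Its difference was 0.28, against 2.76 in R8 and at least 2.04 in C cultures.

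Genes of synaptic vesicles and transmitters were divided. Of 20 measured, 5 were at least 2-fold higher and 2 lower, against 17.9% and 14.7% of all genes, with a median of 0.47 against 2.81 in R8 and 2.12 in C cultures. Slc32a1, the vesicle transporter of inhibitory neurons, was at 388.1 and 122.1, a difference of -1.67, against 3.37 in R8 and 3.04 in C cultures. Slc17a6, the glutamate transporter of excitatory vesicles, was at 207.2 and 68.8, a difference of -1.59, against 2.37 in R8 and at least 3.09 in C cultures. Both transporters were thus highest on day 8 in R7 EBs and lowest at day 29 in R7 neurospheres.

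Snap25, a protein of vesicle fusion, was at 320.8 in R7 EBs and 293.5 in R7 neurospheres, while R8 neurospheres reached 2414.7 and C neurospheres 804.3. Syt1, the calcium sensor of vesicles, was at 169.1 and 252.2 in R7 cultures, a difference of 0.58, against 5.40 in R8 and at least 3.73 in C cultures. Syp, a vesicle membrane protein, was at 263.3 and 709.3, a difference of 1.43. The glutamate receptor subunit Gria1 was at 36.1 and 1460.7, a difference of 5.34 and the largest in the list. Syn2, a synapsin, was at 34.7 and 716.7, a difference of 4.37. Of 43 neuron and synapse genes measured in all 3 cultures, the R7 difference was below the R8 difference in 38 and below the C difference in 31. Among the 25 detected on all 6 arrays, it was below in 23 and 19. Since several of these genes were already higher in R7 than in C or R8 EBs on day 8, the differences start from different levels.

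**Figure D4:**
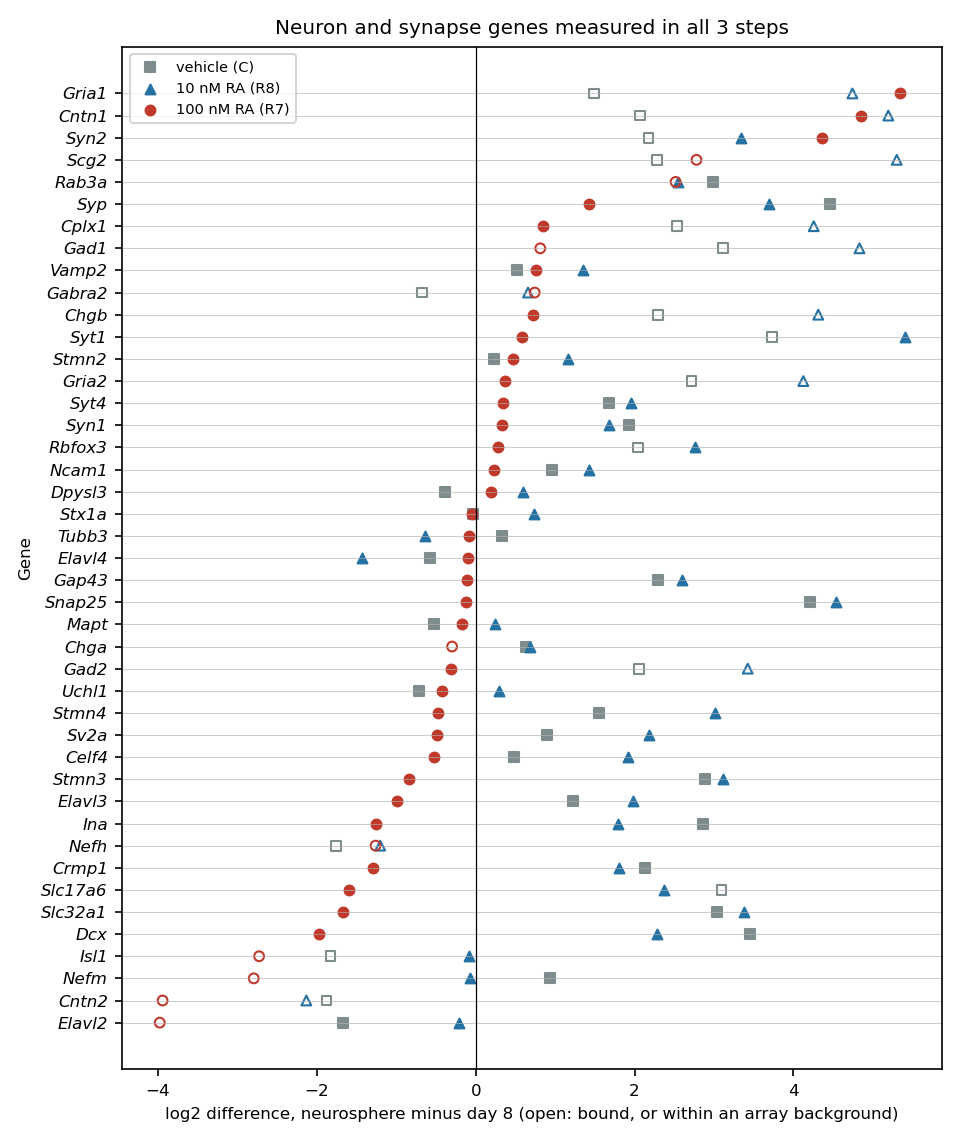
Log2 difference, neurosphere minus day 8, of neuron and synapse genes measured in R7 (circles), R8 (triangles) and C cultures (squares), with open symbols for bounds and for values with a signal within the background of its array. The highest R7 value is 5.34 (Gria1), and the lowest, that of Elavl2, is open because its neurosphere signal of 25.7 is within background. R7 values lie below the R8 value in 38 of 43 genes.

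Pluripotency genes were lower. Of 32 genes, 31 had a probe and 27 were measured, of which 25 were at least 2-fold lower (against 14.7% of all genes) and 1 higher, with a median of -3.11, against -3.26 in R8 and -3.33 in C cultures. Pou5f1, the central transcription factor of the mESC circuit, was at 6599.5 and 142.1, a difference of -5.54. Gdf3, a signalling protein of the TGF-beta family, was at 1540.3 and at 42.4, within background, -4.63 or lower. Dppa3, an oocyte and germ cell protein, was at 1785.0 in R7 EBs and not detected in neurospheres, -6.24 or lower. Esrrb, an orphan nuclear receptor, was at 9961.8 and 441.7, a difference of -4.50, or -2.54 as the mean of its probes. R7 EBs on day 8 thus still had high levels of these genes.

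Klf4 was the member that was higher, at 498.5 and 2573.3, a difference of 2.37, and was higher in R8 (2.54) and C (2.20) cultures too. Klf4 is also made by differentiated epithelial and vascular cells. The only probe of Zfp42, a widely used mESC marker, was dim in mESCs (59.2) and under the detection level on both R7 arrays (15.8 and 8.2).

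Several of the largest decreases were of genes that were higher on day 8 than in mESCs. Zscan4c, which mESCs express in brief bursts that resemble the early embryo, was at 17.9 in mESCs, 3002.1 in R7 EBs and not detected in R7 neurospheres, -6.99 or lower. Tcstv3, another gene of that state, was at 10.3 in mESCs, 1371.6 in R7 EBs and 29.8, within background, in R7 neurospheres, a difference of -4.46 or lower. Pramel16, of the Prame family, was at 5.7, 3510.9 and 35.6, the last again within background, a difference of -5.82 or lower. These are members of families with near-identical copies, and probes may read more than 1 copy. Other large decreases were of Ooep, an oocyte protein (-6.42), Dppa4 (-4.75), Utf1 (-4.49 or lower), the microRNA pathway protein Trim71 (-4.86) and Lefty2, an inhibitor of Nodal signalling (-5.03 or lower).

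Several genes of RA handling were lower. Of 17 measured, 2 were at least 2-fold higher and 7 lower, against 17.9% and 14.7% of all genes, with a median of -0.25. Cyp26a1, the enzyme that degrades RA and is induced by it, was at 351.7 in R7 EBs and not detected in R7 neurospheres, -3.89 or lower. Crabp2, which carries RA to its receptors, was at 789.5 and 66.7, a difference of -3.56. Stra8, an RA target of germ cells, was at 494.0 and not detected, -4.38 or lower, and it had been at 357.4 in C EBs without RA. Rarb, a receptor that RA induces, was at 571.4 and 188.7, a difference of -1.60. Rarg was at 277.7 and 112.2, a difference of -1.31, and Rara was not detected on either R7 array. Aldh1a1, an enzyme that makes RA, was at 84.5 and 1131.0, a difference of 3.74, and was higher in R8 (4.31) and C (at least 4.23) cultures as well.

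Hox genes set position along the head to tail axis. Paralog groups 1 to 5 had 13 genes measured, of which 1 was at least 2-fold higher and 2 lower, against 17.9% and 14.7% of all genes, with a median of -0.25. Hoxa5 was at 3676.6 in R7 EBs and 2592.8 in R7 neurospheres, against 415.1 in C and 327.6 in R8 neurospheres. Hoxb2 was at 1961.9 and 1477.5, against 178.0 in C and 412.9 in R8 neurospheres. Hoxc6 was at 1707.5 and 1781.5, against 74.2 in C and 107.3 in R8 neurospheres. On these 3 genes the R7 arrays of both stages stood above all other arrays. Hoxb5 was lower, at 2135.1 and 820.7, a difference of -1.38, and Hoxd3 was higher, at 49.2 and 215.5, a difference of 2.13. Groups 6 to 13 had 15 genes measured, of which 1 was higher and 3 lower, among them Hoxc9, at 630.0 and 185.5, a difference of -1.76.

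Forebrain and midbrain factors were dim or mixed, with 4 of the 16 that were measured higher by 2-fold or more and 5 lower. The shares over all genes were 17.9% higher and 14.7% lower. Otx2, which specifies the anterior brain and is also expressed in mESCs, was at 499.1 in R7 EBs and not detected in R7 neurospheres, -4.40 or lower, or -2.41 as the mean of its probes. En2, of the midbrain and hindbrain border, was at 110.5 and 445.5, a difference of 2.01.

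Cell cycle genes were lower. Of 29 measured, 24 were at least 2-fold lower and 0 higher, against 14.7% and 17.9% of all genes. The median was -1.72, against -2.04 in R8 and -2.40 in C cultures. Top2a, the topoisomerase of dividing cells, was at 7580.2 and 1812.2, a difference of -2.06. Cdk1, the kinase that starts mitosis, was at 5108.3 and 1226.1, a difference of -2.06. Mki67, a marker of proliferating cells, was at 3411.1 and 1338.5, a difference of -1.35. In C neurospheres the same genes were lower still, at 374.2 for Top2a, 389.2 for Cdk1 and 384.8 for Mki67. Ccnd2, a cyclin of the G1 phase found in neural progenitors, was at 8814.1 and 14475.3, a difference of 0.72.

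The upstream region of Cdk1 is shown as a gene of this list whose promoter holds the motif TTTGAA, the core of the cell cycle homology region through which such genes are repressed outside division. Capitals mark the motif, at -71 and -15.
Cdk1 upstream region, chr10:69352913-69353162, minus strand: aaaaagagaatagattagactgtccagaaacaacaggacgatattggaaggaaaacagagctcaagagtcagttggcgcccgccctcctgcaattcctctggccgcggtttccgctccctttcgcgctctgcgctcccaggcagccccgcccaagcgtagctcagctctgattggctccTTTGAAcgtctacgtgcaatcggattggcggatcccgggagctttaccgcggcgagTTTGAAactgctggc
TTTGAA was in 10 of 25 cell cycle genes with a window and in 20.2% of all genes, and the CCAAT box in 18 of 25 and 41.1%.

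Metabolic genes also shifted. Of 20 measured genes of glycolysis and the hypoxia response, 12 were at least 2-fold lower and 1 higher. Over all genes, 14.7% were lower and 17.9% higher. The median of the glycolysis and hypoxia genes was -1.48, against -1.59 in R8 and -0.89 in C cultures. Slc2a3, a glucose transporter, was at 17825.3 and 1230.5, a difference of -3.86. Pdk1, which keeps pyruvate out of mitochondria, was at 4010.4 and 890.5, a difference of -2.17, or -1.35 as the mean of its probes. Adm, the vascular peptide adrenomedullin, was the member at least 2-fold higher, at 171.5 and 389.5. The letters ACGTG of the hypoxia element were in 14 of 19 of these genes and 21.8% of all genes. Of 15 measured genes of cholesterol synthesis, 9 were at least 2-fold lower and 0 higher, with a median of -1.03. Fdps, an enzyme of the isoprenoid branch point, was at 6604.0 and 1787.1, a difference of -1.89. The sterol element TCACNCCAC was in 1 of 14 of these genes and 1.44% of all genes. Respiratory chain genes stayed within narrow limits, with 1 of 26 at least 2-fold lower, 0 higher and a median of -0.21, which was 0.00 without scaling.

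Genes of connective tissue were higher beside the glial ones. Of 27 measured genes of fibrillar collagens and mesenchyme, 16 were at least 2-fold higher and 3 lower. Over all genes, 17.9% were higher and 14.7% lower. The median of the collagen and mesenchyme genes was 1.58, against 1.06 in R8 and 0.07 in C cultures. Dcn, the collagen-binding proteoglycan decorin, was at 3418.7 and 19087.1, a difference of 2.48. Col1a1 was at 2137.3 and 8176.4, a difference of 1.94, and Col3a1 at 235.4 and 2250.8, a difference of 3.26, or 1.99 as the mean of its probes. Bgn, the related proteoglycan biglycan, was at 158.6 and 3326.8, a difference of 4.39. Tgfbi, a matrix adhesion protein, was lower, at 5420.5 and 744.3, a difference of -2.86. Of 16 basement membrane genes, 8 were at least 2-fold higher and 1 lower, among them Nid1, at 2322.6 and 23817.6, a difference of 3.36, and Col18a1, at 13603.9 and 2988.2, a difference of -2.19.

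Genes of endothelium and blood were mixed. Of 16 measured, 6 were at least 2-fold higher and 1 lower, against 17.9% and 14.7% of all genes. The median was 0.32, against 0.65 in R8 and 1.18 in C cultures. Cdh5, the adhesion protein of endothelium, was at 96.1 and 4318.1, a difference of 5.49, and Tek, the angiopoietin receptor, at 93.6 and 1298.4, a difference of 3.79. Kdr, the receptor for vascular growth factor, was at 236.4 and 206.7. Vwf, the von Willebrand clotting factor, was at 136.3 and at 43.3, within background, -1.13 or lower. Of heart and smooth muscle genes, Tnnt2 was higher (189.1 and 1062.3, a difference of 2.49), whereas Acta2 was lower (25662.8 and 7993.7, a difference of -1.68). Actc1, the cardiac actin, was at 1848.5 in R7 EBs and not detected in R7 neurospheres, -6.29 or lower, while R8 neurospheres kept 1196.8. Its other probe gave a smaller difference of -3.01, from 275.9 to 34.1, the second within background. The macrophage markers Ptprc and Aif1 were not detected on either R7 array, and only 5 of 18 genes of that list with a probe were measured.

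Genes of endoderm and extraembryonic tissue were present in R7 neurospheres too. Of 21 measured endoderm and yolk sac genes, 8 were at least 2-fold higher and 7 lower, against 17.9% and 14.7% of all genes. The median was 0.45, against 1.63 in C cultures. Ttr, the thyroid hormone carrier made by visceral endoderm and choroid plexus, was at 645.3 and 5479.6, a difference of 3.09. Foxa2 was at 190.5 and 1566.0, a difference of 3.04, and Sox17, a transcription factor of endoderm, at 975.4 and 3737.8, a difference of 1.94. Afp, the fetal serum protein of yolk sac, was not detected in R7 neurospheres. C neurospheres were higher than R7 neurospheres for Foxa2 (4319.9), Sox17 (6630.5) and Ttr (20131.8).

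The largest differences of all, bounds aside, included genes of tissues other than brain. Gkn2 and Gkn1, secreted proteins known from the stomach, were at 37501.7 and 18028.5 in R7 neurospheres, differences of 10.27 and 8.47. Prl2c2, a placental hormone of the prolactin family, was at 171.9 and 15062.3, a difference of 6.45, with the near-identical Prl2c3 and Prl2c4 at 6.47 and 6.96. Ctsr, a placental cathepsin, was at 53.0 and 7106.0, a difference of 7.07. Gkn1, Gkn2, Ctsr and the 3 Prl2c genes were all higher in C than in R7 neurospheres, at 33687.7, 57128.3, 17196.4 and from 26143.3 to 52594.7. For Gkn1, Gkn2 and the 3 Prl2c genes the level of the signals is approximate, which leaves the ratios between arrays unchanged. The other pattern was of genes highest in R7 neurospheres. Ecrg4, a secreted protein of choroid plexus and other epithelia, was at 28.4 and 15258.8, a difference of 9.07, against 318.5 in C and 4967.5 in R8 neurospheres. Slc25a18, a mitochondrial glutamate carrier of astrocytes, was at 34.5 and 7507.9, a difference of 7.77, against 208.3 in C and 2651.2 in R8 neurospheres. Prelp, a matrix protein, was not detected in R7 EBs and was at 19813.9 in neurospheres, at least 9.50 higher, against 785.3 in C and 6065.0 in R8 neurospheres. Ptgds, the prostaglandin D synthase of meninges and choroid plexus, was at 60.5 and 8362.0, a difference of 7.11, against 232.5 in C and 5238.6 in R8 neurospheres. The day 8 signals of Gkn2 (30.3), Ecrg4 and Slc25a18 lay just over the detection level, so these differences are imprecise. Day 8 signals were similarly dim for Ntsr2, C4a, Syn2, Gria1, Cntn1, Clps (29.9), Rdh5 (31.9) and Prl2a1 (33.2).

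Further large increases were of Clps (6.99), the colipase of pancreas, Prl2a1 (6.24), of the placental prolactin family, Aqp1 (5.95), the water channel of choroid plexus, and Rdh5 (5.93, or 3.11 as the mean of its probes), a retinol dehydrogenase. Among genes not detected in R7 EBs, further increases were of at least 7.48 for Wfdc1, 7.41 for Apod, a glial lipid carrier, 7.14 for Mmd2, 6.62 for Thrsp, 6.26 for Pvalb, a calcium-binding protein, and 6.22 for Cts6, a placental cathepsin. In R7 neurospheres Clps, Prl2a1, Wfdc1 and Cts6 were below C neurospheres, and Rdh5, Mmd2, Thrsp and Pvalb were above both C and R8 neurospheres. Further large decreases were of Mgarp (-5.80) and Mylpf (-4.78), a myosin light chain of skeletal muscle, and of 4 genes that ended within background, Tex19.2 (-4.81 or lower), Bcat1 (-4.56 or lower), Gsn (-3.80 or lower) and Arap3 (-4.03 or lower). Not detected in R7 neurospheres were AF067061 (-6.82 or lower), Pramel20 (-6.68 or lower), Upk3bl (-6.55 or lower), Eras (-5.67 or lower), a Ras protein of mESCs, Gabrp (-5.31 or lower), a GABA receptor subunit, and Gtsf1l (-5.04 or lower).

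Genes of antigen presentation and the interferon response were higher. Of 21 measured, 14 were at least 2-fold higher and 1 lower, against 17.9% and 14.7% of all genes. The median was 1.46, against 0.79 in R8 and 0.17 in C cultures. B2m, the invariant chain of class I antigen-presenting molecules, was at 4880.6 and 22135.5, a difference of 2.18. H2-D1, a class I heavy chain, was at 3525.1 and 8790.6, a difference of 1.32. Irf7, a transcription factor of the interferon response, was at 53.0 and 488.8, a difference of 3.21. B2m was higher still in C neurospheres (30766.3). Class I genes are near-identical to each other, and a probe may read more than 1 of them.

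The upstream region of B2m is shown as a gene of this list with the element of interferon regulatory factors, in capitals at -139.
B2m upstream region, chr2:122147437-122147686, plus strand: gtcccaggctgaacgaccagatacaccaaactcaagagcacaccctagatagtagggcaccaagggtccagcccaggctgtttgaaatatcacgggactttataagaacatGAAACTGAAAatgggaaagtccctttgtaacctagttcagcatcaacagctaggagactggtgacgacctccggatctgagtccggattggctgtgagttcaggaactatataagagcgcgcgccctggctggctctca
This element was in 9 of 21 genes of the list with a window and in 3.99% of all genes.

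Complement and acute phase genes were higher, with 11 of 16 at least 2-fold higher and 1 lower, against 17.9% and 14.7% of all genes. The median was 1.64, and 4 values are bounds. The probes that represent C4b (60.1) and Cfb (55.1), counted as higher, lay within the background of R7 neurospheres. Other probes of C4b were above background there, at 352.6 and 314.5, at least 3.69 and 3.52 higher. The mean of the measured C4b probes was 2.78. Cp, the copper oxidase ceruloplasmin, was not detected in R7 EBs and was at 1029.9 in neurospheres, at least 5.23 higher, or 2.93 as the mean of its measured probes. Serpina3n, a protease inhibitor of reactive astrocytes and liver, was at 145.2 and 1198.2, a difference of 3.05. C4a, of the complement cascade but not a member of this list, was at 29.9, just over the detection level, and 2886.5, a difference of 6.60. Of 17 lysosomal genes, 6 were at least 2-fold higher and 0 lower, among them Psap, at 5851.8 and 23647.0, a difference of 2.02.

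**Figure D5:**
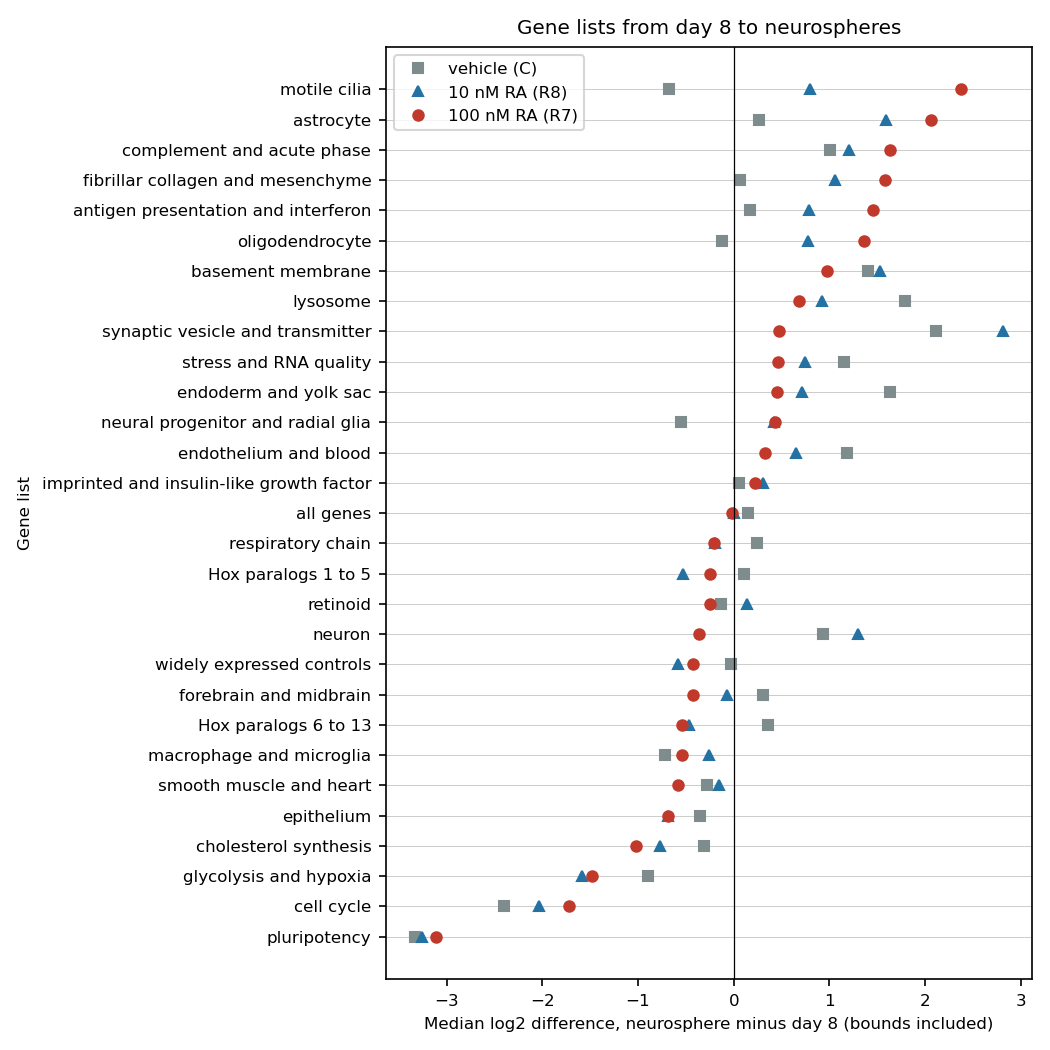
Median log2 difference, neurosphere minus day 8, of each gene list in C (squares), R8 (triangles) and R7 cultures (circles), bounds included, with the median of all genes. R7 cultures have their highest medians for motile cilia (2.37) and astrocyte genes (2.07) and their lowest for cell cycle (-1.72) and pluripotency genes (-3.11).

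Measures of sample quality moved too. The background of the R7 neurosphere array was higher than that of the other arrays, with 0.99 of its background probes under 76.6 before scaling, against 25.6 for R7 EBs. Of 18 widely expressed genes, 1 was at least 2-fold higher and 6 lower, with a median of -0.42, among them Hprt (-1.71), while Gapdh differed by -0.29 and Actb by 0.43. Of 22 stress genes, 4 were higher and 3 lower, shares near the 17.9% and 14.7% of all genes, with Ddit3, a factor of the unfolded protein response, at 966.4 and 3617.0. The part of these shifts in the other results was not tested.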

How the data were processed

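Total RNA, mixed from biological replicates per the study's methods, was hybridized to Illumina MouseWG-6 arrays, 1 per condition. The authors normalized the raw values by median centring in GeneSpring and deposited log2 values, in which a constant of each array and a baseline of each probe had been subtracted. From the deposited values the signal of each array was recovered up to an arbitrary unit, with an approximate level for 2.48% of probes. Arrays were brought to a common median, using the 16144 probes that every one of the 9 arrays detected. Detection was set at a signal of 29.1, from the 0.99 quantile of probes at background on each array, of which the middle value was taken. The number of arrays limits the precision. Of 46643 probes, 32794 had 1 gene symbol, 55 several and 13794 none, and 19403 genes had a probe. The steps were tested on simulated data. A further table with 9 columns of signals under names that match no sample was not used. The labels call the neurosphere stage day 29, whereas the paper counts the days of that stage differently, and the series text names a solvent other than ethanol.

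The members and the 28 gene lists were chosen with earlier results of these data known. Genes named were taken from the 4 markers, the 15 largest differences in each direction among genes detected on both R7 arrays, the 10 largest bounds in each direction, and from each list up to 4 members in each direction, its first 3 members and the cell type markers used to check the label. Of the list members, those described were picked after their values were seen. The motifs and the 4 promoters shown were added afterwards. Scaling, detection level, choice of probe and fold were varied. Analyses used Python 3.11.15 with numpy 2.4.6 and pandas 2.3.3.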

Additional observations from a re-analysis of the deposited data

Results flagged for a closer look

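The genes below were at least 2-fold higher in neurospheres than on day 8 in R7 cultures and at least 2-fold lower in C or R8 cultures, or the reverse. The difference between the cultures was not tested, since each condition has 1 array. Over all genes measured in both R7 and C cultures (12261), 99 were higher in R7 and lower in C, and 31 were lower in R7 and higher in C. Against R8 cultures (12599 genes) the counts were 17 and 32.

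Among glial and progenitor genes, Aldoc changed by 2.16 in R7, -1.81 in C and 0.61 in R8 cultures. Prom1 changed by 1.75 in R7, -1.47 in C and 2.28 in R8 cultures. Olig2 changed by 3.46 in R7, -2.37 or lower in C and 0.85 in R8 cultures.

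Among neuronal genes the direction was the other way. Dcx changed by -1.97 in R7, 3.45 in C and 2.28 in R8 cultures. Slc32a1 changed by -1.67 in R7, 3.04 in C and 3.37 in R8 cultures. Slc17a6 changed by -1.59 in R7, at least 3.09 in C and 2.37 in R8 cultures. These 3 were opposite to both other cultures.

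Among genes of position and endoderm, Hoxc9 changed by -1.76 in R7, 2.18 in C and 0.16 in R8 cultures. En2 changed by 2.01 in R7, -2.14 in C and 0.57 in R8 cultures. Lhx5, a factor of forebrain and spinal interneurons, changed by -2.3 in R7, at least 1.97 in C and -0.37 in R8 cultures. Cubn, an endocytic receptor of yolk sac, changed by -2.37 in R7, at least 2.61 in C and -1.97 in R8 cultures. In R7 neurospheres Lhx5 (27.2) and Cubn (44.0) lay within the background of that array, which gives -1.11 or lower and -1.87 or lower.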

How the results depend on the processing

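No paired analysis was possible because each condition has 1 array, and no replicate could be left out. Values are log2 differences in R7 cultures unless stated. Without scaling, 62.88% of the probes past 2-fold were higher in R7 and 63.65% in R8 cultures, and Aldoc was 2.372. With each array centred on the median of all probes, 62.01% were higher in C cultures. With quantile normalization Aldoc was 2.428. With detection at the 0.95 quantile of background the Gfap bound was 10.96, at a signal of 50 it was 9.074, at 100 it was 8.074, and with no limit 12.4. The median of complement genes was 1.337 at a signal of 50 and at 100, and 2.084 with each array's own 0.99 quantile, a setting chosen after seeing the data. At a signal of 100, probes higher and lower numbered 2656 and 2494 in R7 and 2668 and 2409 in R8 cultures, with 2705 lower in C cultures, and the medians of collagen and cilia genes were 1.213 and 1.604. With no limit the counts were 6896 and 7505 in R7, 7388 and 7431 in R8, and 8053 and 8421 in C cultures, and the cilia median was 2.792. With a 4-fold threshold 1382 probes were higher and 1128 lower. With the mean over the measured probes of a gene, Gfap was 8.443, Aldoc 2.827, Aldh1l1 2.645 and the pluripotency median -2.771, and Mbp turned from -1.14 to 1.117. Scaling moved the median difference of probes detected on both R7 arrays from -0.22 (values as deposited) to 0.13 (no scaling), against -0.08, so differences near these sizes have no settled direction. Averaging the probes of a gene does not apply to counts of probes. The cause of these shifts was not tested, except that a bound and a count of detected probes follow from the detection level itself.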
